A study of Mus musculus with 4 samples.

Results

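The genes described here were Depp1, the FoxO transcription factor genes Foxo1, Foxo3 and Foxo4, and 6 genes that are known FoxO targets or regulators of the same pathway, Txnip, Sesn1, Sesn3, Bcl6, Pik3ip1 and Irs2. They were taken by name, 10 of the 25704 genes listed for each library, and were chosen by their read counts, RPKM and folds in these same libraries, so their values are given as a description with no test. The cells were CMT64, a single established line from a lung carcinoma of a C57BL/lcrf mouse, with wild-type p53 in all conditions. RNA was sequenced 24 h after adding 5 ng/ml of TGF-β together with 10 ng/ml of TNF-α (costimulation), TGF-β alone, TNF-α alone, or neither cytokine (control). There was 1 library for each condition, and the spread between cultures is therefore unknown.

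FoxO factors are forkhead transcription factors that act downstream of insulin and growth factor signaling. When phosphatidylinositol 3-kinase (PI3K) is active, the kinases Akt and Sgk phosphorylate FoxO proteins, which are then bound by 14-3-3 proteins and kept out of the nucleus, and when PI3K signaling is low they enter the nucleus and switch on genes of cell cycle arrest, autophagy and resistance to oxidative stress. FoxO proteins also bind Smad proteins, the transcription factors of TGF-β signaling, at some promoters. These steps act on the FoxO proteins, which were not measured here.

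Exon reads per library ranged between 67481462 (costimulation) and 71898396 (TGF-β). Levels are given as RPKM, the exon reads of a gene scaled by its exon length and by the mapped reads of the library. Folds are ratios of RPKM, and the range in parentheses after a fold is its exact 95% interval for counting error, which leaves out any variation between cultures. The control library stood apart in base composition, since transcript GC content and log2 fold had a Spearman correlation over 12316 genes of -0.59 for TNF-α relative to control and -0.28 for TGF-β relative to control, against 0.02 for costimulation relative to TNF-α. Introns took 6.72% of gene reads in control cells and between 8.16% and 8.497% in the other libraries. Of the epithelial markers, Cdh1, Krt8, Krt18 and Krt19 had nearly all reads. Epcam had 7 to 16 reads per library and Cldn7 5 to 7. The 6 markers summed to 2200 RPKM with costimulation, 2419 with TGF-β, 3270 with TNF-α and 3860 in control cells. Of the alveolar type II markers, the surfactant genes Sftpc, Sftpb, Sftpa1 and Sftpd had 0 to 7 reads per library, while Abca3 had 9.56, 10.5, 12.6 and 14.1 RPKM in that order. The 6 endothelial markers together stayed at or below 0.106 RPKM and the 8 haematopoietic markers at or below 2.16 RPKM in all libraries, while the 6 fibroblast markers summed to 11.4, 9.56, 0.441 and 0.461 RPKM in the order costimulation, TGF-β, TNF-α and control, nearly all of it Col1a1 in the libraries with TGF-β. The part of these differences in the results below was not tested, and in bulk RNA fewer cells with a transcript and less of it per cell cannot be told apart. The TGF-β target Smad7, an inhibitory Smad gene, had 35.6 RPKM with costimulation, 32.5 with TGF-β, 14.2 with TNF-α and 14.1 in control cells, and the NF-κB inhibitor gene Nfkbia had 26.8, 12.3, 51.4 and 18.8 RPKM in the same order.

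Promoter windows from 250 bases before to 50 bases after the transcription start were taken from RefSeq on GRCm38.p6, and 9 of the 10 genes had at least 1 window, 11 windows in all. The FoxO core motif TGTTTAC, searched on both strands, was present in the windows of Txnip and Sesn1 and in 3.65% of all 32851 windows. Its variant TATTTAC, added after the first search, was found in the window of Depp1 and in 3.04% of windows. The variant TGTTTAT, also added, was in none of the 11 windows and in 4.597% of all. Txnip and Sesn1 thus had the core motif, and Depp1 only the added variant TATTTAC. Depp1 and Txnip were both lower in the libraries with TGF-β. Sesn1 was higher, with folds of 1.23 for TGF-β relative to control and 1.13 for costimulation relative to TNF-α. In the windows of these genes, capitals mark the match.
Depp1 promoter, chr6:116650434-116650733, plus strand: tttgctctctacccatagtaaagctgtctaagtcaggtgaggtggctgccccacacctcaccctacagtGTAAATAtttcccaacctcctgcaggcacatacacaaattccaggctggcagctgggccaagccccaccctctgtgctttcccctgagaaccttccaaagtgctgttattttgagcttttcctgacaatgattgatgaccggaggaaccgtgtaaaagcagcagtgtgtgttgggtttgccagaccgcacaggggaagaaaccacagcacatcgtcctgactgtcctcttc
Txnip promoter, chr3:96557707-96558006, plus strand: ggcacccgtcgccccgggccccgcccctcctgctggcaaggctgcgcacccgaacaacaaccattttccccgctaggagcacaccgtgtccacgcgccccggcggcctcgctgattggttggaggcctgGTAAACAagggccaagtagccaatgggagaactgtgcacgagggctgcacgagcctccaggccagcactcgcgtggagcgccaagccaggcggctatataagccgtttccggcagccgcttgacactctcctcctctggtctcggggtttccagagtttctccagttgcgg
Sesn1 promoter, chr10:41810324-41810623, plus strand: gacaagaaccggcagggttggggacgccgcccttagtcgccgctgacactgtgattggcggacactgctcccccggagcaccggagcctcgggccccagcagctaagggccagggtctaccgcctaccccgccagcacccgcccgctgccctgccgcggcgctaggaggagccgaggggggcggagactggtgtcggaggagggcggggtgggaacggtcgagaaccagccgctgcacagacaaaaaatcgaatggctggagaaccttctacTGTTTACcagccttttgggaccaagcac
In the Depp1 window the match read GTAAATA on the strand shown and began at position -181 from the start site. In Txnip it read GTAAACA and began at -121, and in Sesn1 it read TGTTTAC and began at 22 past the start site. The E-box CACGTG was in 7.15% of all windows, and among the 10 genes in those of Bcl6 and Irs2. The palindromic Smad motif GTCTAGAC was in 0.213% of all windows and in none of the 11. A match is a run of letters and not evidence of binding.

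Depp1 was the gene with the lowest folds of the 10. It encodes a small protein first described as induced by progesterone in the decidua, is a known FoxO target and has been linked to autophagy. Its RPKM was 0.417 with costimulation and 0.616 with TGF-β, against 83.3 with TNF-α and 112 in control cells. These values came from 43, 68, 8774 and 11466 exon reads in the same order. Both libraries with TGF-β were more than 100 times below both libraries without it in RPKM. In control cells Depp1 ranked 483 from the highest of 25704 genes, above Txnip, and with TGF-β it ranked 10847.

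Depp1 with TGF-β was at 0.0055 (0.0043 to 0.0070) of its control level, that is 182-fold lower (143 to 234). In the presence of TNF-α, the ratio of costimulation to TNF-α was 0.0050 (0.0036 to 0.0067), or 200-fold lower (148 to 276). Ordered from the lowest fold, Depp1 was at position 8 of 12322 genes without TNF-α and at position 6 with it. These were genes with at least 100 exon reads over the 4 libraries and with reads in both libraries compared. Genes that had no reads in either of the libraries compared were not ranked. On the log2 scale the TGF-β fold with TNF-α minus that without was -0.14 (-0.69 to 0.42), so the difference lay within counting error. TNF-α alone went with a smaller difference, 0.743-fold of control (0.723 to 0.764). Scaling within bins of GC content moved that fold to 0.815, outside the interval. Costimulation had 0.676 (0.451 to 1.005) of the level with TGF-β alone, from so few reads that no difference was detectable at this depth. With a pseudocount of 1 RPKM the TGF-β folds were 0.0143 over control and 0.0168 over TNF-α.

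Depp1 (ENSMUSG00000048489, mm10 chromosome 6, 116650609 to 116652794, plus strand) lies inside an intron of Rassf4, which runs on the minus strand and spans 116633008 to 116673952. The exons of the genes share no position. Of the Depp1 exon reads, between 11.6% and 14.8% had a single placement in the deposited counts, against 97.99% to 99.4% for the other 9 genes. The sources used here do not say that reads were counted by strand, so reads within the body of Depp1 and reads from the Rassf4 intron cannot be told apart. Reads across exon-exon junctions of Depp1 numbered 6 with costimulation, 8 with TGF-β, 1287 with TNF-α and 1722 in control cells. Exon reads with a single placement numbered 5, 8, 1263 and 1694 in that order and were nearly all junction reads, so these are not separate measurements. The junction reads gave folds of 0.0043 (0.0019 to 0.0085) for TGF-β relative to control and 0.0048 (0.0017 to 0.0104) for costimulation relative to TNF-α, as low as the exon reads. Rassf4 itself had 6, 3, 64 and 44 exon reads in the same order, far fewer than Depp1 without TGF-β. Intron reads of Depp1 were 0 with costimulation, 6 with TGF-β, 115 with TNF-α and 126 in control cells, a fold of 0.044 (0.016 to 0.099) for TGF-β relative to control. That interval lies above the one from exon reads. The other annotated genes that overlap 1 of the 10, on Foxo1, Sesn1 and Bcl6, had 0 to 3 exon reads per library.

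**Figure D1:**
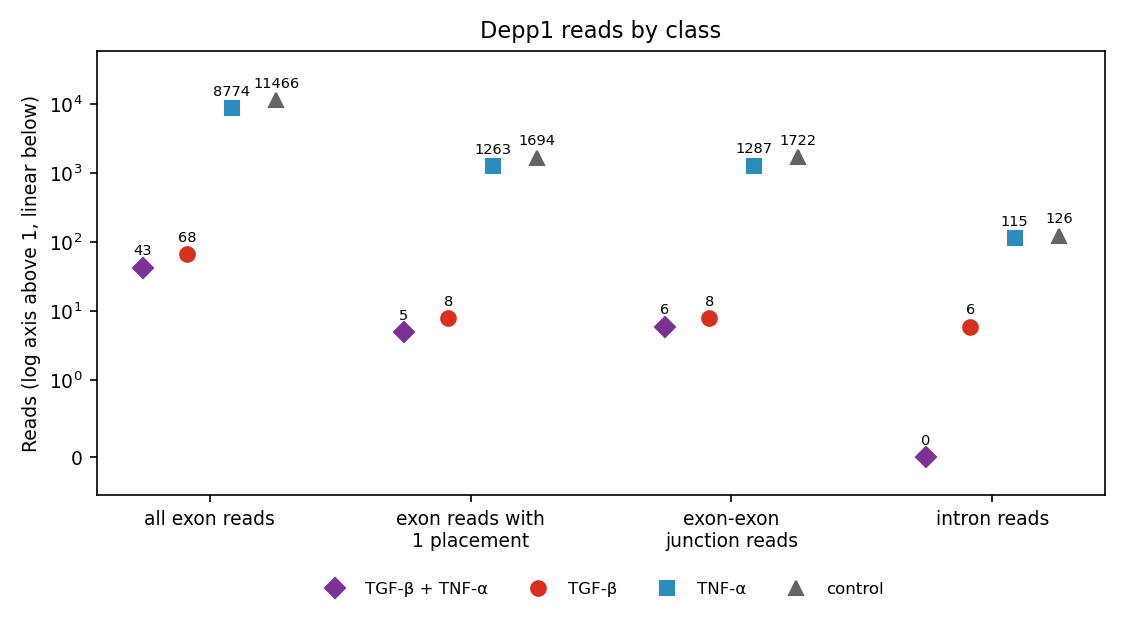
Reads of Depp1 in each library (y axis, number of reads, log scale above 1 and linear below), split on the x axis into all exon reads, exon reads with 1 placement, exon-exon junction reads (largely the same reads as those with 1 placement) and intron reads. In every class the 2 libraries with TGF-β (costimulation 43 and TGF-β 68 exon reads) lie far below the 2 without it (TNF-α 8774 and control 11466).

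The genes with the most similar pattern were found by the largest difference from Depp1 over the 3 log2 folds against control. The nearest 5 were Apoc2, which encodes an activator of lipoprotein lipase (largest difference 0.41), the membrane mucin gene Muc4 (0.65), the trefoil peptide gene Tff1 (0.68), the fructose bisphosphatase gene Fbp2 (0.71) and Sptssb, for a small subunit of serine palmitoyltransferase (0.84). Apoc2 had 0.146 RPKM with costimulation, 0.197 with TGF-β, 22.1 with TNF-α and 39.4 in control cells. Tff1 was the most abundant of them, with 8.73, 9.27, 1014 and 1465 RPKM in the same order. Fbp2 rested on 1 read in each library with TGF-β. The other 9 genes described here were left out of this search, as were genes with Gm, Rik or accession-like names. The likeness is over 4 libraries only.

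Of the FoxO factor genes, Foxo1 was lower with TGF-β while Foxo3 and Foxo4 differed little. Foxo1 (chromosome 3, 52268336 to 52353221) had 2.74 RPKM with costimulation and 3.004 with TGF-β, against 5.85 with TNF-α and 4.89 in control cells. The libraries with TGF-β lay below those without it, and how many of all genes separate in this way was not counted. The fold was 0.615 (0.581 to 0.650) for TGF-β relative to control and 0.468 (0.443 to 0.495) for costimulation relative to TNF-α. Costimulation relative to TNF-α leaves out the control library, and junction reads gave a lower fold there of 0.286 (0.200 to 0.402), from 44 reads with costimulation and 157 with TNF-α. Junction reads for TGF-β relative to control gave a higher fold than exon reads, 0.725 (0.520 to 1.007), an interval that includes 1. It came from 68 reads with TGF-β and 87 in control cells. For TGF-β relative to control the intron reads of Foxo1 had a fold of 0.986 (0.690 to 1.41), and for costimulation relative to TNF-α 0.501 (0.355 to 0.701).

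Foxo3, the FoxO gene with the most reads, had 10.4 RPKM with costimulation, 9.35 with TGF-β, 10.7 with TNF-α and 10.6 in control cells. Its fold was 0.880 (0.848 to 0.912) for TGF-β relative to control and 0.969 (0.935 to 1.004) for costimulation relative to TNF-α. With TMM scaling these folds were 0.838 and 0.930, and with junction reads 0.994 and 0.926, so which of the comparisons showed the lower Foxo3 level depended on the reads counted. Foxo4, on the X chromosome, had 12.8, 11.9, 12.7 and 13.04 RPKM in the order costimulation, TGF-β, TNF-α and control, the highest level per length of the FoxO genes. Its folds were 0.916 (0.871 to 0.963) and 1.004 (0.955 to 1.056). Foxo6, the remaining family member, had 7.18 RPKM with costimulation, 6.95 with TGF-β, 5.07 with TNF-α and 7.02 in control cells, and its TGF-β term did not pass the test described below (log2 fold change 0.17, standard error 0.15, adjusted p = 0.40, edgeR). All FoxO genes were thus present in each library, between 2.74 and 13.04 RPKM.

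**Figure D2:**
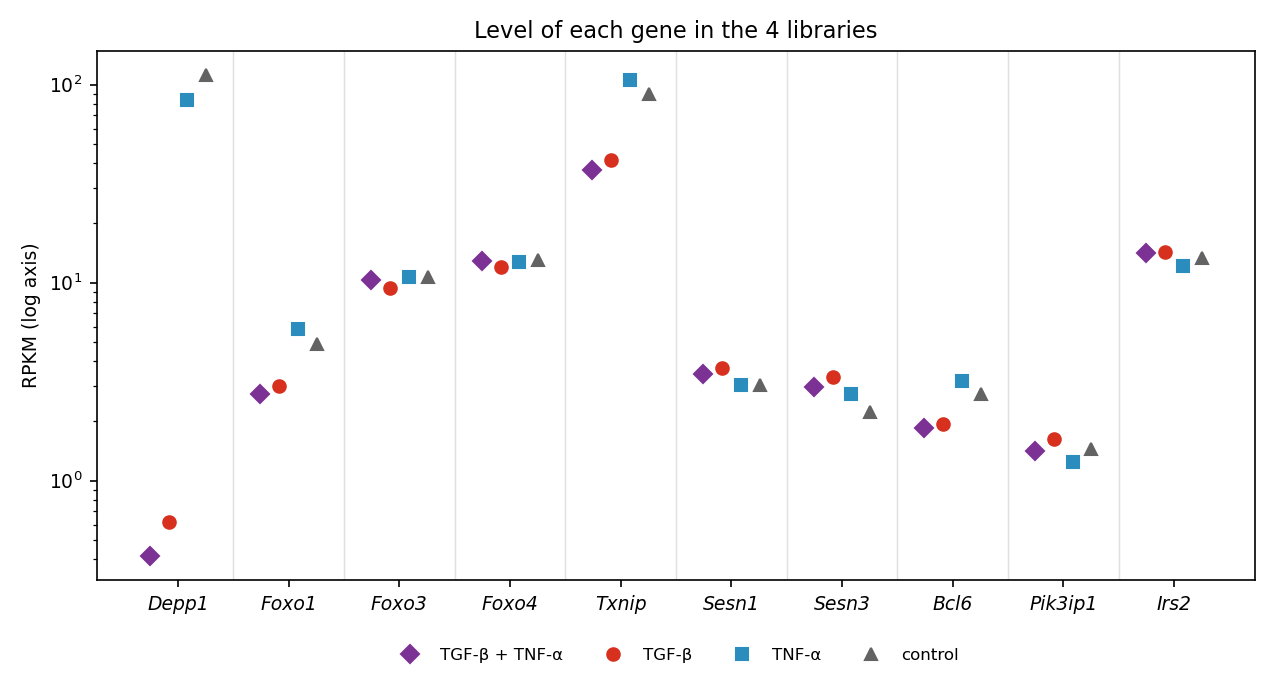
RPKM of the 10 genes (y axis, log scale) in each of the 4 libraries, 1 point per library, ordered within each gene as costimulation, TGF-β, TNF-α and control. Depp1 spans 0.417 to 112 RPKM and Txnip 37.2 to 105 RPKM, while Foxo3, Foxo4, Sesn1, Pik3ip1 and Irs2 vary far less between libraries.

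Among the target genes, Txnip had the lowest fold after Depp1. It encodes thioredoxin-interacting protein, an alpha-arrestin that binds thioredoxin and lowers glucose uptake. Txnip (chromosome 3, 96557957 to 96561883) had 37.2 RPKM with costimulation and 41.6 with TGF-β, against 105 with TNF-α and 89.1 in control cells. The folds were 0.466 (0.455 to 0.478) for TGF-β relative to control and 0.353 (0.344 to 0.362) for costimulation relative to TNF-α. Junction reads gave 0.450 (0.431 to 0.470) and 0.356 (0.341 to 0.372), and intron reads 0.50 (0.413 to 0.603) and 0.350 (0.280 to 0.435), so all read classes of Txnip gave similar folds.

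Bcl6, a transcriptional repressor that FoxO factors activate in other cells, had 1.84 RPKM with costimulation, 1.93 with TGF-β, 3.19 with TNF-α and 2.75 in control cells. It was lower in both libraries with TGF-β. The folds were 0.702 (0.627 to 0.785) for TGF-β relative to control and 0.579 (0.517 to 0.647) for costimulation relative to TNF-α. Intron reads of Bcl6 had folds of 1.17 (0.898 to 1.54) and 0.866 (0.683 to 1.10), which both include 1.

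The sestrins restrain the kinase complex mTORC1, through the GATOR complexes, when amino acids are short. Sesn3 (chromosome 9, 14275067 to 14333101) had 2.96 RPKM with costimulation, 3.33 with TGF-β, 2.75 with TNF-α and 2.22 in control cells. The control library alone was low, and the fold was 1.497 (1.41 to 1.60) for TGF-β relative to control but 1.08 (1.01 to 1.14) for costimulation relative to TNF-α. Sesn3 had the lowest GC content of the 10 genes, 45.0%, and scaling within bins of GC content gave 1.30 and 1.03 for the same folds. Junction reads of Sesn3 numbered 256, 389, 214 and 156 in the order costimulation, TGF-β, TNF-α and control, with folds of 2.31 (1.92 to 2.80) for TGF-β relative to control and 1.22 (1.02 to 1.47) for costimulation relative to TNF-α.

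Sesn1 had 3.44 RPKM with costimulation and 3.72 with TGF-β, against 3.04 with TNF-α and 3.03 in control cells, folds of 1.13 (1.03 to 1.24) over TNF-α and 1.23 (1.13 to 1.34) over control. Sesn2, which is not among the 10 genes and is known to be induced by p53 and by stress, went the other way from Sesn1 and Sesn3. It had 19.2 RPKM with costimulation and 18.5 with TGF-β, against 35.1 with TNF-α and 39.7 in control cells, and it fell in the test described below. Sesn2 had the highest level per length of the sestrin genes in every library.

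Pik3ip1 and Irs2 act at the level of PI3K. Pik3ip1, an inhibitor of the PI3K catalytic subunit, was the gene of the 10 with the fewest reads and had 1.41 RPKM with costimulation, 1.62 with TGF-β, 1.25 with TNF-α and 1.44 in control cells. Its TGF-β folds of 1.13 (0.980 to 1.31) over control and 1.13 (0.966 to 1.32) over TNF-α were not separated from 1 at this depth, while junction reads, fewer still, gave 1.06 (0.792 to 1.42) and 1.78 (1.25 to 2.57). Irs2, an adaptor of the insulin receptor, had 14.1 RPKM with costimulation, 14.2 with TGF-β, 12.2 with TNF-α and 13.3 in control cells. The folds were 1.07 (1.03 to 1.10) for TGF-β relative to control and 1.16 (1.12 to 1.20) for costimulation relative to TNF-α, where the few junction reads gave 1.74 (1.22 to 2.51). Relative to control, Irs2 with costimulation was at 1.06 (1.02 to 1.09), at 0.996 under DESeq2 size factors and at 1.84 (1.27 to 2.68) by junction reads. The exon folds are small beside those of Depp1 and Txnip.

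A fold beyond 2 in either direction was reached by Depp1 and Txnip for TGF-β relative to control, both lower, that is 2 of the 10 genes and 0 higher, while 7.88% of 12355 genes were lower and 8.65% higher by that rule. For costimulation relative to TNF-α, Depp1, Foxo1 and Txnip were lower, 3 of 10, against 7.47% lower and 7.26% higher of all genes. For costimulation relative to control the 2 genes Depp1 and Txnip were lower, with 8.3% of all genes lower and 8.77% higher. At a fold of 1.5 Foxo1 joined the lower genes for TGF-β relative to control, 3 of 10, where 14.2% of all genes were lower and 18.5% higher. For costimulation relative to TNF-α, Bcl6 was the 4th of 10 lower genes at that fold, with 13% of all genes lower and 13.2% higher, and for costimulation relative to control 3 were lower, with 14.4% lower and 18.5% higher. Nothing is read from these counts, since the genes were chosen with these values known. The 10 genes had between 1444 and 59612 exon reads over the 4 libraries, so all of them were above the minimum of 100.

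None of the 10 genes differed by more than 2-fold between libraries that differed in TNF-α only. The background was 1.28% higher and 0.785% lower for TNF-α relative to control, and 0.745% higher and 0.688% lower for costimulation relative to TGF-β. At 1.5-fold the 10 genes still numbered 0 and the background was 4.67% higher and 2.7% lower for TNF-α alone, and 2.1% higher and 1.94% lower for costimulation relative to TGF-β. Without TGF-β, TNF-α went with folds of 1.20 (1.14 to 1.25) for Foxo1, 1.18 (1.16 to 1.20) for Txnip, 1.24 (1.16 to 1.32) for Sesn3 and 1.16 (1.05 to 1.28) for Bcl6. In the presence of TGF-β the folds of costimulation relative to TGF-β were 0.912 (0.856 to 0.971) for Foxo1, 0.894 (0.868 to 0.921) for Txnip, 0.890 (0.840 to 0.943) for Sesn3 and 0.955 (0.844 to 1.080) for Bcl6. Foxo1, Txnip and Sesn3 were therefore above 1 in the first comparison and below 1 in the second, and how many of all genes cross in this way was not counted. On the log2 scale the second minus the first was -0.39 (-0.50 to -0.28) for Foxo1, -0.40 (-0.45 to -0.35) for Txnip and -0.48 (-0.60 to -0.35) for Sesn3, intervals for counting error only, and the difference was not tested against the spread between cultures. Foxo3 had 1.006 (0.971 to 1.042) and 1.108 (1.069 to 1.149), and Irs2 0.913 (0.881 to 0.946) and 0.990 (0.958 to 1.024), in the order TNF-α relative to control and costimulation relative to TGF-β. Sesn1 had 1.004 (0.916 to 1.10) and 0.926 (0.851 to 1.007), Foxo4 0.977 (0.929 to 1.027) and 1.071 (1.018 to 1.126), and Pik3ip1 0.869 (0.744 to 1.01) and 0.867 (0.751 to 1.001), in that order. By junction reads the Pik3ip1 fold of TNF-α relative to control was 0.550 (0.382 to 0.784). Scaling within bins of GC content moved the Irs2 fold of TNF-α relative to control to 1.04 and its junction reads gave 1.05, so that fold has no firm direction.

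**Figure D3:**
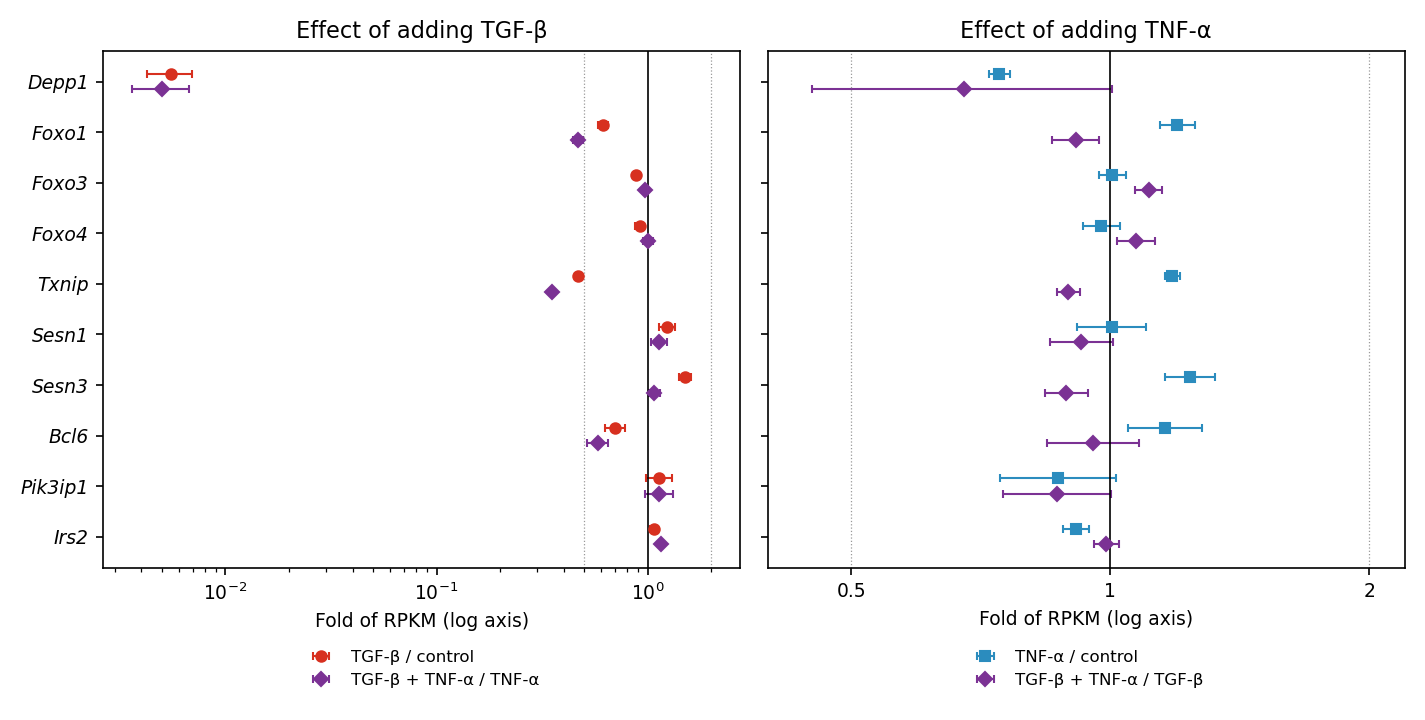
Folds of RPKM for the 10 genes (x axes, log scale) with 95% counting intervals as bars. Left, TGF-β relative to control (circles) and costimulation relative to TNF-α (diamonds), where Depp1 lies near 0.0055 and 0.0050. Right, TNF-α relative to control (squares) and costimulation relative to TGF-β (diamonds), where all points lie between 0.676 and 1.24. Dotted lines mark 2-fold.

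Genes of the pathway other than the 10 were tested in edgeR, in 1 fit to the 4 libraries with an additive term for each cytokine. This quasi-likelihood test takes departures from additivity as the spread, with 1 residual degree of freedom, and draws the spread of each gene toward a trend over all genes. A p-value therefore does not rest on a gene's own spread alone. The p-values were adjusted by the Benjamini-Hochberg method over 13509 genes. The words rose and fell are kept for an adjusted p under 0.05. The background for TGF-β was 18.6% of genes that rose and 19.9% that fell, 38.4% together. Smad7 rose by 1.20 on the log2 scale (standard error 0.15, adjusted p = 1.1e-14). Medians of lists are over the genes with at least 100 exon reads. Of 131 tested genes in 7 lists, 24 rose and 27 fell with TGF-β. A fit with no TNF-α term gave the same counts, 24 and 27. In fits of this kind that left out a library, the counts were 13 and 15 when it was that of TGF-β, 15 and 17 when it was that of costimulation, 45 and 35 when it was that of TNF-α, and 26 and 32 when it was that of control cells. The background moved with them, since over all genes these fits gave 1406 that rose and 1705 that fell without the TGF-β library, 1458 and 1654 without costimulation, 3658 and 3817 without TNF-α, and 2782 and 3072 without control, against 2507 and 2684 in the additive fit.

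Genes upstream of FoxO, the receptors, PI3K subunits, phosphatases and kinases, numbered 23 tested, of which 8 rose and 1 fell. Sgk1, a kinase that phosphorylates FoxO proteins, had 34.7 RPKM with costimulation and 37.2 with TGF-β, against 10.7 with TNF-α and 10.1 in control cells, and rose by 1.72 (standard error 0.15, adjusted p = 2.1e-28 from edgeR). The PI3K catalytic subunit gene Pik3cd (log2 fold change 1.30) and the phosphoinositide phosphatase gene Inpp4b (0.94) also rose, and the regulatory subunit gene Pik3r2 fell by 0.41, a call lost without the TGF-β library (adjusted p = 0.11) or the costimulation library (0.15). Akt1 and Akt2, with log2 fold changes of 0.08 and -0.01, did not pass. The median log2 fold of the list was 0.51 for TGF-β relative to control and 0.17 for costimulation relative to TNF-α, against 0.07 and 0.06 over all genes. For TNF-α relative to control, which shares the control library with the first of these, it was 0.23, against 0.01 over all genes. The count of genes that rose was 5 if either the TGF-β or the costimulation library was left out and 17 if the TNF-α library was.

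Of 22 tested genes for proteins that bind or modify FoxO proteins, 4 rose and 0 fell in edgeR. Setd7, a lysine methyltransferase with FoxO3 among its substrates, had 12.3 RPKM with costimulation and 13.3 with TGF-β, against 5.30 with TNF-α and 3.68 in control cells, and rose by 1.47 (standard error 0.15, adjusted p = 5.3e-20). Skp2, a ubiquitin ligase subunit that targets FoxO1 for degradation, rose by 0.57 (adjusted p = 8.4e-04), but not without the TGF-β library (0.058). Leaving out the TGF-β, costimulation, TNF-α or control library gave 1, 2, 10 and 6 genes that rose, in that order, and 0, 0, 1 and 3 that fell. The median log2 fold was 0.25 for TGF-β relative to control and 0.13 for costimulation relative to TNF-α.

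Of 30 other FoxO targets tested, 15 fell and 5 rose, and of the 7 lists this one had the lowest median log2 fold, -0.28 for TGF-β relative to control and -0.29 for costimulation relative to TNF-α. Bnip3, a mitophagy receptor also known as a target of hypoxia signaling, had 24.8 RPKM with costimulation and 28.8 with TGF-β, against 94.8 with TNF-α and 110 in control cells, and fell by 2.003 (standard error 0.15, adjusted p = 2.7e-39 from edgeR). The antiproliferative gene Tob1 fell by 1.19 and Tsc22d3, which encodes the glucocorticoid-induced leucine zipper, by 1.08. In the other direction, the growth arrest gene Gadd45a had 227 RPKM with costimulation and 227 with TGF-β, against 107 with TNF-α and 98.2 in control cells, and rose by 1.08 (0.14, 6.4e-14). Ppargc1a, the coactivator PGC-1α, rose by 0.82 and Cited2, a binding partner of CBP and p300, by 0.62. Ppargc1a was not called in DESeq2 (adjusted p = 0.16) or without the TGF-β (0.27), costimulation (0.063) or control (0.057) library. FoxO factors are known to repress Ccnd1, which rose, and Ccnd2, which fell, so the list is not of one sign. The fit with no TNF-α term called 16 that fell and 9 when either the TGF-β or the costimulation library was left out, and 3 rose when the TGF-β library was left out.

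**Figure D4:**
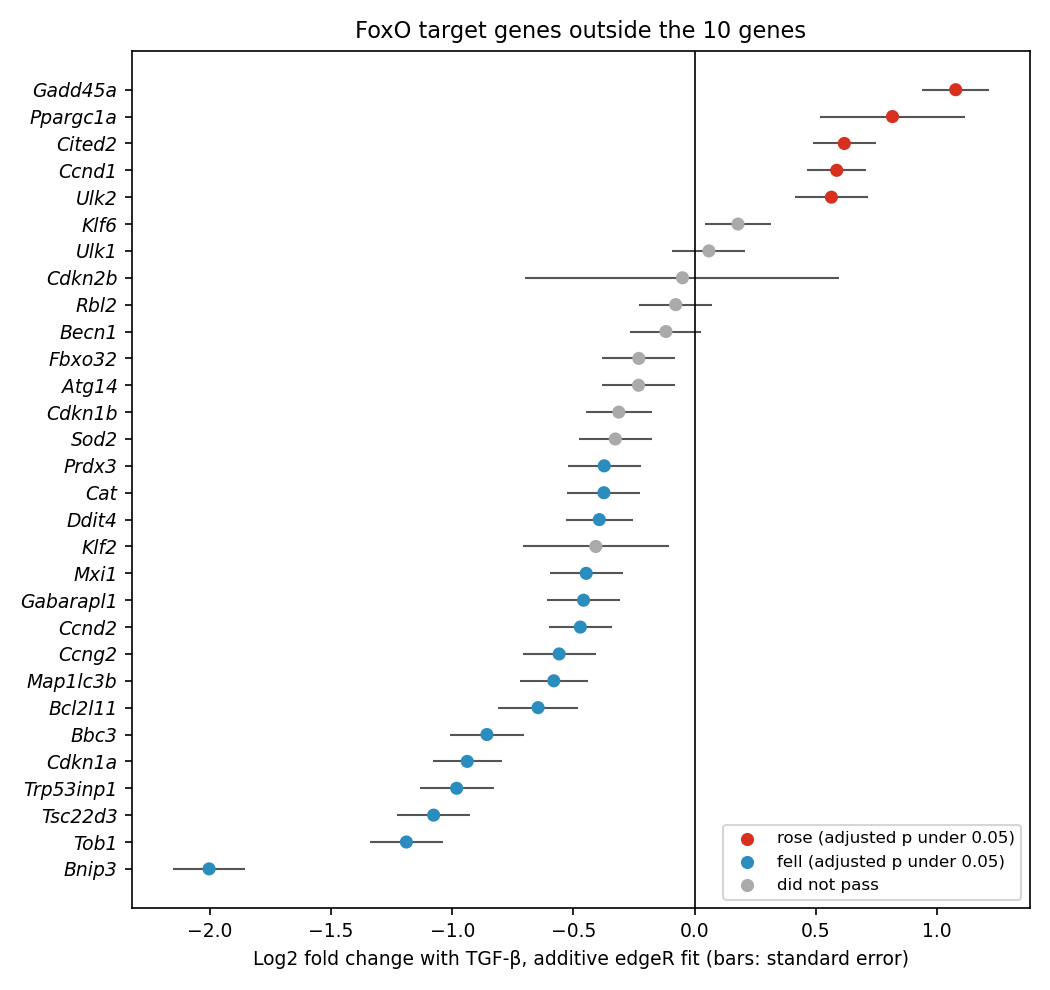
Log2 fold change with TGF-β in the additive edgeR fit (x axis, bars are 1 standard error) for the 30 tested FoxO target genes outside the 10 genes. Red points rose and blue points fell at an adjusted p under 0.05, gray points did not pass. The points run between Bnip3 at -2.003 and Gadd45a at 1.08.

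Among 11 tested partners of Txnip, namely thioredoxin, alpha-arrestins, glucose transport and the MondoA family, 1 rose and 3 fell. Mlxipl, the glucose-responsive factor ChREBP and an activator of Txnip, fell by 2.46 (standard error 0.25, adjusted p = 3.4e-21 from edgeR). It had 0.223 RPKM with costimulation, 0.277 with TGF-β, 1.59 with TNF-α and 1.09 in control cells. Mlxip, another MondoA family gene, was more abundant, with 4.99, 5.44, 4.38 and 3.76 RPKM in the same order. It was higher with TGF-β but did not pass (log2 fold change 0.29, adjusted p = 0.11, edgeR). The glucose transporter gene Slc2a1 fell by 1.25 and had 27.7 RPKM with costimulation, 25.7 with TGF-β, 51.4 with TNF-α and 71.8 in control cells. The alpha-arrestin gene Arrdc1 fell by 0.83, and the thioredoxin reductase gene Txnrd1 rose by 0.74. Thioredoxin itself, Txn1, had 252 RPKM with costimulation, 249 with TGF-β, 234 with TNF-α and 244 in control cells, and did not pass (adjusted p = 1.00). Without the TNF-α library 6 fell. The median of the list stood, on the log2 scale, at -0.14 for TGF-β relative to control and -0.01 for costimulation relative to TNF-α.

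In the list of sestrin partners and mTORC1 nutrient sensing, 2 of 19 tested genes rose and 3 fell. Sesn2 fell by 1.05 (standard error 0.15, adjusted p = 1.5e-11 from edgeR) and Deptor, an mTOR inhibitor, by 0.84. Mios, a GATOR2 subunit, rose by 0.81. The GATOR1 gene Depdc5 rose by 0.43 and the GATOR2 gene Wdr24 fell by 0.42, calls that were lost when the TGF-β library (adjusted p = 0.16 and 0.19) or the costimulation library (0.16 and 0.19) was left out. Without the TNF-α library 6 genes of the list fell, and 1 rose without either the TGF-β or the costimulation library. The median log2 fold was 0.07 and 0.01, near that of all genes.

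Of 23 tested p53 targets, a list that shares 5 genes with the other lists, 3 rose and 8 fell. Trp53inp1, an autophagy-linked p53 target, fell by 0.98 and the cell cycle inhibitor gene Cdkn1a by 0.94. Trp53inp1 had 9.37 RPKM with costimulation, 9.27 with TGF-β, 23.4 with TNF-α and 13.1 in control cells. Its log2 fold was -0.51 for TGF-β relative to control and -1.32 for costimulation relative to TNF-α, so the additive value matches neither. Cdkn1a had 38.2 RPKM with costimulation and 35.6 with TGF-β, against 64.3 with TNF-α and 70.7 in control cells. The polo-like kinase gene Plk2 rose by 1.00 and the nuclease gene Aen by 0.82. Rrm2b, a ribonucleotide reductase subunit, rose by 0.38 with an adjusted p of 0.0498 and was called in 3 of 10 alternatives. In the fit with no TNF-α term 6 genes fell, 3 when the TGF-β library was left out, and 6 rose when the TNF-α library was left out. The median log2 fold was -0.03 and -0.01. Among the corepressors of Bcl6, 1 of 8 tested genes rose and 1 fell, the histone deacetylase gene Hdac5 by 0.70. The median of that list was 0.16 and -0.01.

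With TNF-α, 0 of the 131 genes passed in edgeR, where 0.289% of all genes rose and 0.133% fell. At an unadjusted p under 0.05 in edgeR there were 2 of 131, against 568 of all 13509 genes, so nothing is read from that count. The 2 were Trp53inp1 and Fas, named after their values were seen, and Fas had 4 to 20 exon reads per library. DESeq2 called 0 and had 1 at an unadjusted p under 0.05, against 209 of all 20533 genes. The NF-κB target Nfkbia rose by 1.28 with TNF-α (standard error 0.15, adjusted p = 2.2e-13) in the additive fit, a call lost with TNF-α as the only term (adjusted p = 1.00) and in the fits of that kind without each library (0.97 to 1.00).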

How the data were processed

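RNA-seq reads of the 4 libraries were trimmed, mapped and counted by the authors in CLC Genomics Workbench (version not given in the sources used here), with mm10 named in the submitters' processing notes. The deposited counts are whole exon, intron, junction and uniquely placed reads per gene, and the deposited RPKM is exon reads, those with several placements included, scaled by exon length and mapped reads. The deposited tables have 25704 genes, and no column of the authors' own comparisons was used.

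Folds are ratios of the deposited RPKM with exact Clopper-Pearson intervals (95%) conditional on mapped reads, which cover counting error only. Shares of all genes are over the 12355 genes with at least 100 exon reads over the 4 libraries. Genes outside the 10 were tested on exon read counts in edgeR (4.0.16, R 4.3.3) with TMM factors, filterByExpr and robust quasi-likelihood dispersions, and both cytokines as terms. The standard error was taken as the size of the log2 fold change over the root of F. In fits with 1 library left out only the tested cytokine is a term, and a lone library of a condition is assumed to vary like the others. Nothing in the sources says that libraries came from separate cultures, so p-values measure the spread between these libraries, in part shared over genes.

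Alternatives were TMM and DESeq2 (1.42.0) scaling, RLE factors, unique reads, a pseudocount of 1 RPKM, a fold of 1.5, no filter, DESeq2, 1 term, and each library left out. Junction reads, and GC bins for the list tests and medians, were added after the data were seen. GC content (10 bins) is from GENCODE M21, in which 96.9% of 25685 shared genes have the deposited coordinates, and promoters are from RefSeq GRCm38.p6. Ratios, intervals and plots were made with scipy (1.17.1), pandas (2.3.3), numpy (2.4.6) and matplotlib (3.10.9) under Python (3.11.15).

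The 10 genes, the lists and the tests were chosen with earlier results of these data known. The text names all 10 genes, in each list up to 3 called genes with the largest change in each direction for TGF-β and any called for TNF-α, the 5 genes nearest Depp1, Smad7 and Nfkbia as checks, and Foxo6 and Sesn2 to complete the families. Some genes that the rule takes are not reported here. Akt1, Akt2, Txn1, Mlxip, Ccnd1 and Ccnd2 were named after their values were seen.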

Additional observations from a re-analysis of the deposited data

Results flagged for a closer look

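For Foxo1, Txnip and Sesn3 the exon folds between libraries that differ in TNF-α went one way without TGF-β and the opposite way with it. The counting intervals lay on opposite sides of 1. How many of all genes cross 1 in this way was not counted, so nothing particular to these genes is read from it. Foxo1 had a fold of 0.912 (0.856 to 0.971) for costimulation relative to TGF-β and 1.20 (1.14 to 1.25) for TNF-α relative to control. Txnip had 0.894 (0.868 to 0.921) and 1.18 (1.16 to 1.20) in the same comparisons, and Sesn3 0.890 (0.840 to 0.943) and 1.24 (1.16 to 1.32). On the log2 scale the fold in the presence of TGF-β minus that in its absence was -0.39 (-0.50 to -0.28) for Foxo1, -0.40 (-0.45 to -0.35) for Txnip and -0.48 (-0.60 to -0.35) for Sesn3, with intervals for counting error only. Each value rests on 1 library per condition, and the difference was not tested against the spread between cultures. Intron reads, which are few, gave 1.67 (1.22 to 2.31) for Foxo1, 0.980 (0.837 to 1.15) for Txnip and 1.68 (1.07 to 2.66) for Sesn3 for TNF-α relative to control. For costimulation relative to TGF-β they gave 0.849 (0.583 to 1.23), 0.686 (0.536 to 0.876) and 0.920 (0.656 to 1.29) in that order. Scaled within bins of GC content, the folds were 0.919 and 1.16 for Foxo1, 0.902 and 1.14 for Txnip, and 0.895 and 1.11 for Sesn3.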

How the results depend on the processing

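Unique exon reads left all 50 folds of the 10 genes within their counting intervals, and 40 of 50 stayed there under TMM scaling, 38 under DESeq2 size factors, 31 under GC bins, 40 with a pseudocount of 1 RPKM and 24 with junction reads. The Irs2 fold of TNF-α relative to control, 0.913 as reported, crossed 1 to 1.04 under GC bins and to 1.05 with junction reads, and that of costimulation relative to control, 1.06, to 0.996 under DESeq2 size factors, and the cause was not tested. Over all pathway lists, the genes that rose with TGF-β ranged from 13 to 45 and those that fell from 15 to 35 with each library left out in turn, against 24 and 27 as reported, while over all genes the same fits gave 1406 to 3658 that rose and 1654 to 3817 that fell, against 2507 and 2684. Among FoxO targets the same fits gave 3 to 6 that rose and 9 to 16 that fell, against 5 and 15. Those fits have fewer libraries and 1 term, and with 1 term and all libraries the pathway counts were 24 and 27. Of 32 genes with a test that the naming rule takes, 23 were called under every alternative run and 9 lost the call under at least 1. No paired analysis was possible because each condition had 1 library. Depth limits Depp1 in the libraries with TGF-β, where 43 and 68 exon reads set the width of its intervals.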
